A study of Mus musculus with 12 samples.

Results

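The transcriptional response of Pak1 wild-type murine embryonic fibroblasts (MEFs) to ionizing radiation (IR) is described here from the 3 arrays labelled wildtype and IR-treated (WT-IR) and the 3 arrays labelled wildtype with no treatment (WT). These are 6 of the 12 arrays of the study, and the members are all 14996 probe sets, of 16755 in all, that carry 1 gene symbol. Fibroblasts are connective tissue cells, and these were grown from C57Bl6J embryos at day 13.5. Every culture, the untreated ones included, had been immortalized with the SV40 T antigen, a viral protein with binding sites for p53 and for the retinoblastoma protein. The study also held 3 arrays of Pak1 knockout cells (KO) and 3 of irradiated Pak1 knockout cells (KO-IR), from embryos of the same background in which Pak1 was deleted in the whole body. Those 6 arrays enter here only in the estimate of the spread and where a change in WT cells is set against the change in KO cells. IR came from a caesium source, and the untreated cultures were handled in the same way without it. The sources used here give neither the total dose nor the time from irradiation to harvest, nor whether each genotype is a single isolate.

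IR breaks DNA strands. In most cells the kinases ATM and ATR then signal through the checkpoint kinases to hold the cycle before S phase or before mitosis, and p53 induces genes of arrest, repair and apoptosis. Genes of DNA replication peak at the G1/S transition under E2F factors, and genes of mitosis peak in G2 and M phase under MuvB complexes, B-Myb and Foxm1. T antigen is known for blocking p53 and for freeing E2F from the retinoblastoma protein.

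The values are on the log2 scale, and the authors had set the median of every probe set to 0. A value of 0 is thus the middle of the 12 arrays, and the absolute signal of a gene is not part of the data used, so no marker could be read as present or absent. Across probe sets, the correlation between 2 arrays of a group lay between 0.862 and 0.896 in WT and between 0.890 and 0.922 in WT-IR. Of 13 fibroblast marker probe sets, Pdgfra was called higher and Pdgfrb lower after IR (7.69% each, against 0.86% higher and 1.71% lower over all probe sets). None of the macrophage (7), epithelial (5), endothelial (6), neural (6) or muscle (4) marker probe sets was called, with list medians between -0.080 and -0.011. The labels call the replicates biological without saying what separates them, so the p-values speak only of the spread among these arrays, and precision is limited by their number. The Pak1 gene was not analysed here.

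IR changed many genes of WT cells by a small amount. At an adjusted p under 0.05 from limma, fitted on all 12 arrays with the Benjamini-Hochberg correction across the 16755 probe sets, 385 probe sets with 1 symbol were called (2.57% of those tested), of which 129 were higher (0.86%) and 256 lower (1.71%). With array weights 1502 were called, and with the unpaired t-test of the study's methods and the same correction 1 was. The median fold change was 1.21 in both directions and the smallest called change was 1.11-fold. A change of at least 1.25-fold was reached by 39 of the higher and 86 of the lower probe sets, of at least 1.5-fold by 2 and 8, and of at least 2-fold by 1 and 0. In all 385 called probe sets the 3 WT-IR arrays lay on one side of the 3 WT arrays, which held for 29.1% of all probe sets with 1 symbol. The median change over all of these probe sets was -0.03 on the log2 scale, with 36.5% above 0. The share of decreases depended on the scaling of the arrays: 66.5% of the calls were lower as deposited, 59.3% with each array centred on its median and 47.8% after quantile normalization (294 higher, 269 lower).

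The number of calls rested on single arrays as well. It fell from 385 to 119 without WT-IR replicate 2, to 130 without WT replicate 3, to 163 without WT-IR replicate 1, to 203 without WT replicate 2 and to 238 without WT replicate 1, and was 325 without WT-IR replicate 3. Each of the 385 kept its sign in every one of these fits, and 100 of them (28 higher, 72 lower) stayed called without each of the 6 arrays in turn. The genes with full values below are among the 100 unless it is said otherwise.

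**Figure D1:**
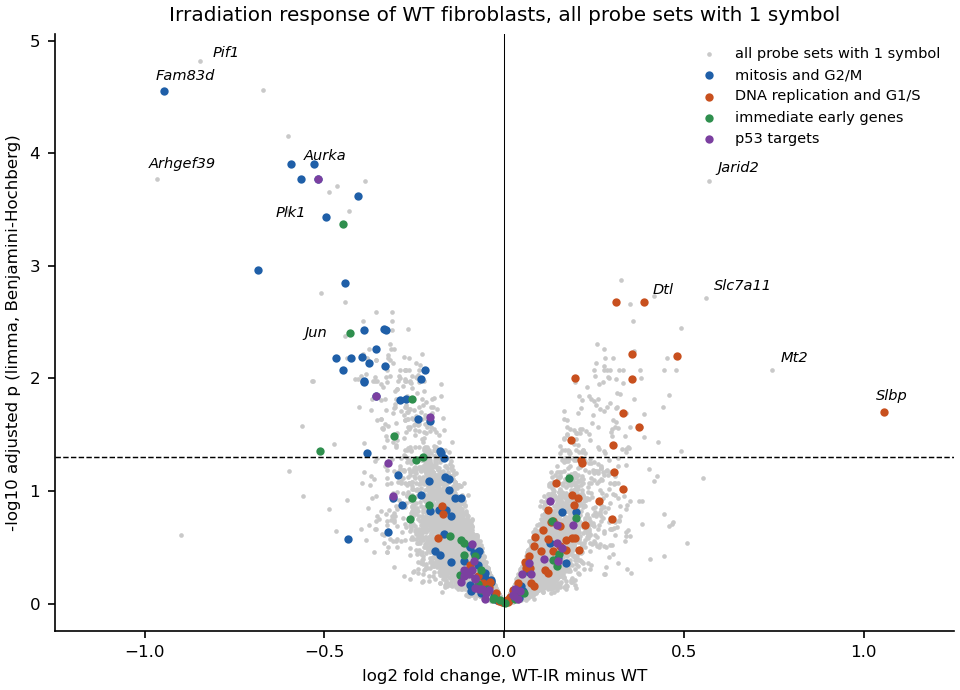
Each point is 1 of 14996 probe sets, with the log2 fold change from WT to WT-IR on the x axis and -log10 of limma's adjusted p on the y axis, where the dashed line marks 0.05. Colours mark the members of 4 gene lists. Mitotic genes fill much of the upper left arm, G1/S genes lie on the right, and Slbp at 1.06 is the only called probe set past 2-fold.

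Genes of mitosis and the G2/M transition were the group with the most decreases. Of 87 probe sets of 84 such genes, 31 (35.6%) were called lower, against 1.71% of all probe sets, and none was called higher. Their median change was -0.17 on the log2 scale against -0.03 over all probe sets. Of the 87 values 72 were negative, and 36.5% of all probe sets were above 0. The arrays of the groups did not overlap in 72.4% of the 87, against 29.1% of all probe sets. The 31 decreases ran from -0.18 for Spc24 to -0.95 for Fam83d. Leaving out 1 array gave 28 (without WT replicate 1), 24 (WT replicate 2), 22 (WT replicate 3), 24 (WT-IR replicate 1), 22 (WT-IR replicate 2) and 25 (WT-IR replicate 3) called members, and 20 were called in each of these fits.

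Among the kinases and phosphatases that drive entry into mitosis, Aurka, the kinase of centrosome maturation and spindle assembly, read 0.54, 0.41 and 0.48 in WT and -0.11, -0.09 and -0.16 in WT-IR. Every irradiated array lay well below every untreated one, and the change of -0.59 (standard error 0.05, adjusted p = 0.000124) is a 1.51-fold decrease. Plk1, the polo-like kinase that Aurka activates, read 0.26, 0.22 and 0.31 in WT and -0.26, -0.25 and -0.18 in WT-IR, a change of -0.50 (standard error 0.05, adjusted p = 0.00037). A further probe set of Plk1 moved by only -0.04 (adjusted p = 0.635), so the probe sets of this gene disagree. Bora, the cofactor through which Aurka activates Plk1, fell by 0.36 (adjusted p = 0.00549). Cdc25c, the phosphatase that removes the inhibitory phosphates from Cdk1, fell by 0.33 (adjusted p = 0.00772). Aurkb, the kinase of the chromosomal passenger complex, fell by 0.18 (adjusted p = 0.0461), but each of the 6 arrays was needed for that call (adjusted p = 0.182 without WT-IR replicate 2). Cdk1 itself was at -0.08 (adjusted p = 0.352).

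The list also held cyclins and proteins of the ubiquitin ligases that act in mitosis. Ccnb2, a B-type cyclin that partners Cdk1, read -0.32, -0.43 and -0.24 in WT and -0.77, -0.85 and -0.65 in WT-IR. The groups were apart, and the decrease was 1.34-fold (adjusted p = 0.00661). Ccnf, a cyclin that serves as a substrate receptor of an SCF ubiquitin ligase, fell by 0.40 (adjusted p = 0.00643). Fzr1, the Cdh1 activator of the anaphase-promoting complex, fell by 0.36 (adjusted p = 0.00685), and G2e3, a ubiquitin ligase of G2 and M phase, by 0.39 (adjusted p = 0.00371). Cdc20, the activator that opens anaphase, fell by 0.39 (adjusted p = 0.0107), a call lost without WT replicate 3, WT-IR replicate 1 or WT-IR replicate 2, with the highest adjusted p (0.0566) in the last case. Ccna2, the A-type cyclin of S and G2 phase, was at -0.03 (adjusted p = 0.845).

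Spindle proteins included the 2 largest decreases of the list, Fam83d and Ckap2l. Fam83d, which anchors casein kinase 1 on the mitotic spindle, read 0.16, 0.37 and 0.44 in WT and -0.63, -0.64 and -0.59 in WT-IR. The irradiated arrays were nearly equal to each other, and the difference of -0.95 (standard error 0.06, adjusted p = 2.78e-05) came to 1.93-fold. Ckap2l, a microtubule protein of spindle poles, read 0.32, 0.15 and 0.23 in WT against -0.45, -0.53 and -0.37 in WT-IR, a 1.61-fold decrease (adjusted p = 0.00109). Kif18a, the kinesin that dampens chromosome oscillation at the metaphase plate, fell by 0.47 (adjusted p = 0.00658). Aspm, a protein of spindle poles, fell by 0.38 (adjusted p = 0.00724). Of the other kinesins called, Kif20b fell by 0.39 (adjusted p = 0.0106), lost without WT replicate 3 or WT-IR replicate 2, and Kif11, the bipolar motor that separates spindle poles, by 0.21 (adjusted p = 0.0237), lost without any array but WT-IR replicate 1. The highest adjusted p was 0.0574 for Kif20b and 0.114 for Kif11, both without WT-IR replicate 2.

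At the centromere, Sgo2a, a shugoshin that shields centromeric cohesin, read 0.03, 0.04 and 0.05 in WT and -0.44, -0.34 and -0.32 in WT-IR. The WT arrays were almost identical, and the decrease of 0.41 had an adjusted p of 0.00024. Its relative Sgo1 fell by 0.33 (adjusted p = 0.00371), and Cdca2, which brings phosphatase 1 to anaphase chromatin, by 0.34 (adjusted p = 0.00367). Depdc1b, a DEP domain protein of mitotic cells, read 0.68, 0.62 and 0.58 in WT and 0.12, 0.08 and 0.10 in WT-IR, and fell 1.44-fold (adjusted p = 0.000124). Pimreg, a regulator of the metaphase to anaphase transition, fell 1.48-fold (adjusted p = 0.000168). Gtse1, a microtubule protein that can carry p53 out of the nucleus, fell 1.43-fold (adjusted p = 0.000168). Other called members were Parpbp at -0.44, Cdkn3 at -0.45 and Cdca3 at -0.22. The proliferation marker Mki67 was at -0.02 (adjusted p = 0.924), and Top2a, the topoisomerase of chromosome condensation, at 0.15 (adjusted p = 0.393).

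**Figure D2:**
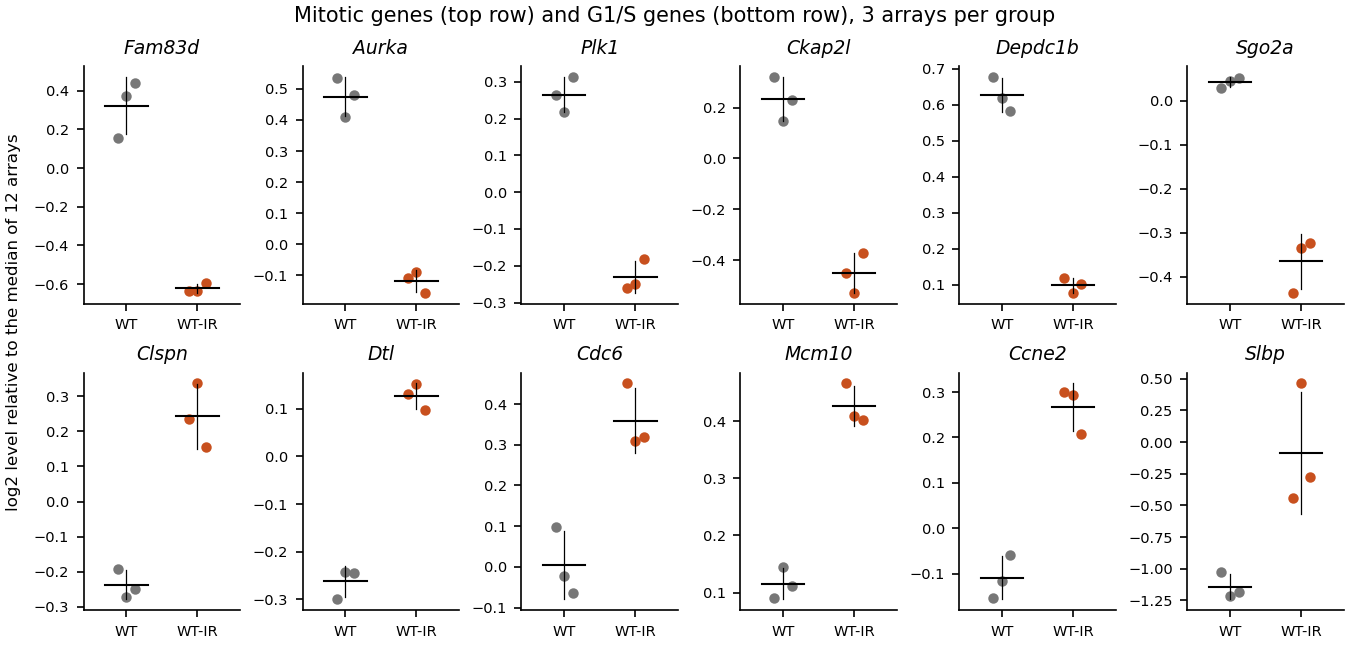
Log2 level of 12 genes relative to the median of the 12 arrays, with 1 point per array, 3 arrays per group, the horizontal line at the group mean and the vertical line spanning 1 SD on either side. The y axis differs between panels. The 6 mitotic genes lie lower in every WT-IR array than in any WT array (Aurka between -0.16 and -0.09 against 0.41 to 0.54), the 6 G1/S genes lie higher, and the WT-IR arrays of Slbp are far apart (-0.44, 0.46 and -0.28).

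Of the 8 probe sets that fell by at least 1.5-fold, 3 belong to the mitotic list (Fam83d, Ckap2l and Aurka). Of the others, Arhgef39 read 0.58, 0.25 and 0.32 in WT and -0.50, -0.67 and -0.57 in WT-IR, the largest decrease of all called probe sets (1.95-fold, adjusted p = 0.000168). Arhgap19 read -0.22, -0.17 and -0.16 in WT and -0.90, -0.88 and -0.78 in WT-IR, with little spread in either group (1.59-fold lower, adjusted p = 2.74e-05). Hyls1, a protein of centrioles, fell 1.52-fold (adjusted p = 0.000329).

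The start sites of the mitotic genes carry letters that are known from cell cycle promoters: the CHR element, TTTGAA, where MuvB complexes can bind, and the CCAAT box, CCAAT, where NF-Y can bind. Neither motif contains the other. They were searched on both strands of RefSeq windows of 300 bases in build GRCm38.p6 (250 before and 50 after an annotated start), and a match describes letters, not binding. TTTGAA was present in 18 of 27 windows of the called mitotic genes (66.7%), in 30 of 46 windows of the mitotic genes that were not called (65.2%) and in 14.3% of the 14898 windows of all genes measured. CCAAT was present in 23 of 27 (85.2%), 25 of 46 (54.3%) and 37.5%. Windows were found for 24 of the 31 called genes. Parts of 3 of them are shown because these genes fell and hold both motifs: Cdc20 (chr4:118437314-118437463, minus strand), Ccnb2 (chr9:70421525-70421674, minus strand) and Fam83d (chr2:158767939-158768088, plus strand). Capitals mark CCAAT and TTTGAA, the latter in Fam83d as TTCAAA, its form on the opposite strand.
Cdc20: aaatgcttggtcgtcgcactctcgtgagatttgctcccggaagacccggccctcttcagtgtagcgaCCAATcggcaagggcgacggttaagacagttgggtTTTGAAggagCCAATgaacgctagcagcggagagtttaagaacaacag
Ccnb2: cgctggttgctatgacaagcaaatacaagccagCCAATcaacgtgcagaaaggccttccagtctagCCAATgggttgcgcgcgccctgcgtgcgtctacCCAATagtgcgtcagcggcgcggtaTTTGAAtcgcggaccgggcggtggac
Fam83d: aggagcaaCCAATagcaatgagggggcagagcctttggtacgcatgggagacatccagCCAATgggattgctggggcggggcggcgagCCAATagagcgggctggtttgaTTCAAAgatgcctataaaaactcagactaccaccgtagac
Cdc20 holds CCAAT at 2 places and Ccnb2 and Fam83d at 3 places each in these stretches, with 1 TTTGAA in each.

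Genes of DNA replication and the G1/S transition moved the other way. Of 67 probe sets, 11 (16.4%) were called higher, against 0.86% of all probe sets, and none lower. The median change was 0.12 against -0.03 over all probe sets. Of the 67 values 54 were positive, against 36.5% of all probe sets above 0. The arrays did not overlap in 61.2% of the 67, against 29.1% of all probe sets. The median lay between 0.107 and 0.155 under the alternatives tried, and that of the mitotic list between -0.181 and -0.150. The 11 increases ran from 0.19 for Mcm3 to 1.06 for Slbp. Called members numbered 8 without WT replicate 1, 6 without WT replicate 2, 5 without WT replicate 3, 7 without WT-IR replicate 1, 5 without WT-IR replicate 2 and 10 without WT-IR replicate 3, and 4 were called in each of these fits, Clspn, Dtl, Cdc6 and Mcm10. Under quantile normalization 15 were called.

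Clspn, the adaptor through which ATR activates the checkpoint kinase Chk1 at replication forks, read -0.19, -0.27 and -0.25 in WT and 0.24, 0.34 and 0.15 in WT-IR. Each irradiated array was above each untreated one, and the gene rose 1.39-fold (adjusted p = 0.00628). Dtl, the substrate receptor that marks Cdt1 and p21 for destruction in S phase and after damage, read -0.30, -0.24 and -0.24 in WT and 0.13, 0.15 and 0.10 in WT-IR. The spread within either group was small beside the 1.31-fold increase (adjusted p = 0.00209). Cdc6, which loads the replicative helicase on origins, rose by 0.36 (adjusted p = 0.00605) from 0.10, -0.02 and -0.06 to 0.45, 0.31 and 0.32. Mcm10, which helps to fire origins, read 0.09, 0.14 and 0.11 in WT and 0.47, 0.41 and 0.40 in WT-IR, and rose by 0.31 (adjusted p = 0.00209).

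The E-type cyclins, which start S phase with Cdk2, both rose: Ccne2 by 0.38 (adjusted p = 0.027) and Ccne1 by 0.30 (adjusted p = 0.0392). E2f7, an atypical E2F that represses G1/S genes, rose by 0.35 (adjusted p = 0.0101), Pola1, the catalytic subunit of polymerase alpha, by 0.33 (adjusted p = 0.0202), Cdc25a, the phosphatase that activates Cdk2, by 0.20 (adjusted p = 0.00996), and Mcm3, a subunit of the replicative helicase, by 0.19 (adjusted p = 0.0352). These 6 calls were lost without WT-IR replicate 2, among other arrays for all but Cdc25a, at adjusted p-values of 0.123 for Ccne2, 0.177 for Ccne1, 0.0597 for E2f7, 0.0975 for Pola1 and 0.0574 for Cdc25a, and the highest value for Mcm3 was 0.144, without WT-IR replicate 1.

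Slbp, which binds the stem-loop of histone mRNAs and is made in S phase, had the largest change of all, and the least even one. It read -1.03, -1.22 and -1.18 in WT and -0.44, 0.46 and -0.28 in WT-IR. All 3 irradiated arrays were above the untreated ones, but WT-IR replicate 2 stood far above the other two. The 2.08-fold increase (standard error 0.20, adjusted p = 0.0199) was no longer called without WT replicate 2 (adjusted p = 0.0718) or WT replicate 3 (adjusted p = 0.081), and without WT-IR replicate 2 it was 0.78 on the log2 scale and called (adjusted p = 0.0436). The replication-dependent histones, whose mRNAs Slbp binds, had a median of -0.23, against -0.03 over all probe sets with 1 symbol. Of their 12 values 11 were negative, and 36.5% of all probe sets were above 0. Among the 12, 1 was called lower (8.33%, against 1.71% of all probe sets). That one, the linker histone H1f2, read 0.12, -0.10 and 0.04 in WT and -0.66, -0.52 and -0.46 in WT-IR (adjusted p = 0.0264), and the call was lost without WT replicate 1 or 3 or WT-IR replicate 1 or 2 (up to 0.111). Of the others, H2bc21 was at -0.33 (adjusted p = 0.0596), H1f5 at -0.29 (adjusted p = 0.0808) and H4c14 at -0.49 (adjusted p = 0.143). Histone genes are near-identical copies of each other, so probes may be shared among them.

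An E2F site, searched as TTTCGCGC, TTTGGCGC or TTTCCCGC on both strands, was present in 7 of 10 windows of the called G1/S genes (70%), in 16 of 52 of those not called (30.8%) and in 2.73% of all windows. None of the 10 held TTTGAA. Dtl (chr1:191575515-191575664, minus strand), Clspn (chr4:126556860-126557009, plus strand) and Mcm3 (chr1:20820283-20820432, minus strand) are shown as called genes with a match, with the E2F letters in capitals.
Dtl: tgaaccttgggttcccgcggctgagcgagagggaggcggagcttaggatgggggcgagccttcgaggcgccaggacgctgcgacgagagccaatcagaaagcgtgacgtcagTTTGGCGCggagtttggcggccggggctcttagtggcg
Clspn: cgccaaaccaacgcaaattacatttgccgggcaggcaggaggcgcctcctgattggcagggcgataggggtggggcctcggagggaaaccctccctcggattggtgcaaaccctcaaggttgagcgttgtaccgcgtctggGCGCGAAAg
Mcm3: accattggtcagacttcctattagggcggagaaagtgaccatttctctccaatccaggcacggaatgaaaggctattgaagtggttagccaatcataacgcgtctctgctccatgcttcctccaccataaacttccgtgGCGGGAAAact
In Clspn and Mcm3 the letters are read on the opposite strand, as GCGCGAAA and GCGGGAAA.

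Among 47 probe sets of double-strand break repair and checkpoint genes, 5 were called higher (10.6%, against 0.86% of all probe sets) and 2 lower (4.26%, against 1.71%), with a median change of 0.03. Pif1, a helicase of telomeres and stalled forks, read 0.28, 0.39 and 0.30 in WT and -0.56, -0.57 and -0.44 in WT-IR, and its 1.80-fold decrease had the smallest adjusted p of all probe sets with 1 symbol (1.51e-05). H2ax, the histone that is phosphorylated beside DNA breaks, read -0.22, -0.21 and -0.01 in WT and -0.68, -0.53 and -0.44 in WT-IR (1.33-fold lower, adjusted p = 0.0101). Both groups of H2ax were uneven, yet did not overlap. Brca1, which directs breaks into homologous recombination, rose from 0.11, 0.21 and 0.19 to 0.58, 0.55 and 0.45 (1.28-fold, adjusted p = 0.00306). Polq, the polymerase of theta-mediated end joining, rose from -0.25, -0.26 and -0.27 to 0.09, 0.14 and 0.04 (1.27-fold, adjusted p = 0.00217). Parp1, the enzyme that marks breaks with poly(ADP-ribose), rose by 0.15, Fancm, a helicase of the Fanconi pathway, by 0.26 and Exo1, the nuclease of end resection, by 0.18. These calls had adjusted p-values of 0.0402, 0.0406 and 0.044, and without WT-IR replicate 2 of 0.160, 0.179 and 0.196. Outside the list, Rfwd3, the ubiquitin ligase of the single-strand binding protein RPA, rose 1.36-fold (adjusted p = 0.00838).

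No member of the list of p53 targets used here was called higher in WT cells, which does not cover targets outside the list. Of 36 measured targets, 3 were called lower (8.33%, against 1.71% of all probe sets), and the median change was -0.06, against -0.03 over all probe sets. Cdkn1a, the p21 inhibitor of cyclin-dependent kinases, read -1.55, -1.77 and -1.68 in WT and -1.34, -1.62 and -1.59 in WT-IR, with overlapping arrays (0.15, standard error 0.09, adjusted p = 0.415). Mdm2, the ubiquitin ligase that restrains p53, read -0.57, -0.73 and -0.63 in WT and -0.53, -0.64 and -0.68 in WT-IR, again overlapping (adjusted p = 0.853). Btg2, an antiproliferative cofactor of mRNA deadenylation, read -0.80, -0.83 and -0.73 in WT and -0.81, -0.72 and -0.76 in WT-IR (adjusted p = 0.842). The changes of Ccng1 (0.04), Trp53inp1 (0.16), Sesn2 (-0.11), Pmaip1 (-0.05) and Gadd45a (0.11) were also not called, with adjusted p-values from 0.321 to 0.901. The 3 members called lower were Gtse1 and Ckap2, both also in the mitotic list, and Phlda3, an inhibitor of Akt, at -0.21 (adjusted p = 0.0222). The call of Phlda3 was lost without any array but WT-IR replicate 3 (up to 0.119), and that of Ckap2 (adjusted p = 0.0144) without WT replicate 3 or WT-IR replicate 1 or 2 (up to 0.0715).

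In KO cells the same list moved differently, and the 2 comparisons share no arrays. From KO to KO-IR, 26 of the 36 targets were called higher (3.49% of all probe sets with 1 symbol were), with a median of 0.58. The interaction, in which the change in WT cells is subtracted from that in KO cells, was called above 0 for 21 of them, against 1.23% of all probe sets. Btg2 had an interaction of 2.45 on the log2 scale (adjusted p = 1.2e-08), Cdkn1a of 1.64 (adjusted p = 3.73e-05) and Mdm2 of 1.35 (adjusted p = 6.66e-06). The list was written with earlier results of these data known, so its direction is not independent evidence.

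The cell cycle lists also held calls in KO cells. From KO to KO-IR, 26 mitotic probe sets were called lower (3.02% of all were) and 10 of the 67 of the G1/S list higher (3.49% of all were). Of the 31 mitotic members called lower in WT, 21 were called lower and 2, Gtse1 and Ckap2, higher in KO. The interaction was called for 4 of the 87 mitotic probe sets, Fam83d, Gtse1, Ccnf and Ckap2, and for none of the 67 of G1/S, which does not show that the others changed equally. Over all 385 called probe sets, 40 of the 129 increases and 101 of the 256 decreases were called in the same direction in KO cells. Of all probe sets with 1 symbol, 3.49% were called higher and 3.02% lower there. Of the increases and decreases, 1 and 11 were called in the opposite direction in KO cells, and 15 and 24 had a called interaction (1.45% of all probe sets with 1 symbol had one). The WT change that picked these probe sets also enters the interaction, so their share is raised by the choice itself.

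**Figure D3:**
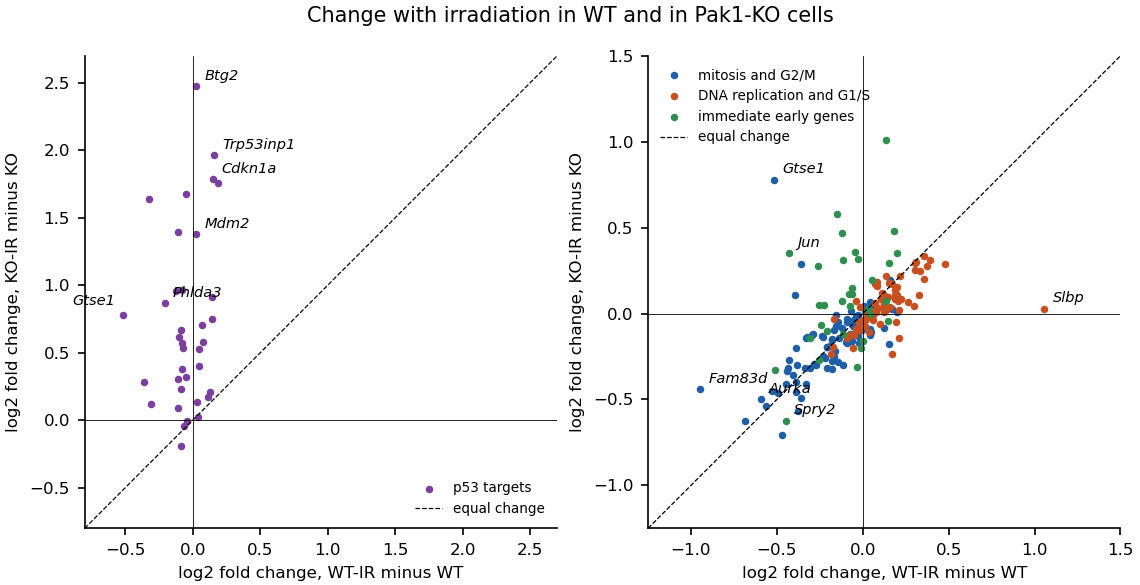
Log2 fold change from WT to WT-IR (x axis) against that from KO to KO-IR (y axis), with 1 point per probe set of a list and a dashed line where both are equal. On the left, p53 targets spread upward from an x value near 0, with Btg2 at 0.02 and 2.48. On the right, most mitotic and G1/S genes lie near the line, and Gtse1 (-0.52 and 0.78), Jun (-0.43 and 0.35) and Slbp (1.06 and 0.03) lie away from it. The interaction was called for Gtse1 and Jun but not for Slbp (limma adjusted p = 0.149).

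Immediate early genes, which cells switch on within a short time of growth factor or stress signals, held 6 decreases and no increase among 33 probe sets (18.2% lower, against 1.71%). The list median was -0.07. Spry2, a feedback inhibitor of Ras and ERK signalling, read 0.02, 0.11 and 0.08 in WT and -0.45, -0.32 and -0.37 in WT-IR (1.36-fold lower, adjusted p = 0.000425). Jun, a subunit of the AP-1 factor, read -0.30, -0.43 and -0.34 in WT and -0.77, -0.81 and -0.78 in WT-IR (1.35-fold lower, adjusted p = 0.00393). Neither gene had overlapping arrays, and both stayed called without each of the 6 arrays. Ier3, an early response gene of stress and survival, fell from -0.02, 0.18 and 0.33 to -0.62, -0.22 and -0.20 (adjusted p = 0.044), with wide spread in both groups. Dusp6, the phosphatase of ERK, fell by 0.31 (adjusted p = 0.0322), Klf6, a zinc finger factor, by 0.26 (adjusted p = 0.0152) and Maff, a small Maf factor, by 0.23 (adjusted p = 0.04999). These last 4 calls were each lost in some of the fits without an array. Without single arrays the list had 3 (WT replicate 1), 3 (WT replicate 2), 2 (WT replicate 3), 2 (WT-IR replicate 1), 2 (WT-IR replicate 2) and 5 (WT-IR replicate 3) called members. Egr1 was at -0.24 (adjusted p = 0.0526) and Fos at -0.26 (adjusted p = 0.178). Outside the list, Errfi1, a feedback inhibitor of the EGF receptor, fell from -0.06, -0.18 and -0.18 to -0.62, -0.57 and -0.64 (1.38-fold, adjusted p = 0.000194). Ptgs2, an inducible gene placed in the inflammatory list, rose by 0.49 (adjusted p = 0.00356). The direction of the immediate early list thus depends on which genes were admitted, and they were chosen with earlier results known. Jun rose in KO cells by 0.35, and the interactions of Jun (0.78, adjusted p = 0.000478), Errfi1 (0.38, adjusted p = 0.0072) and Klf6 (0.30, adjusted p = 0.0488) were called, while that of Spry2 was not (adjusted p = 0.312).

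Of 33 antioxidant and metallothionein probe sets, 3 were called higher (9.09%, against 0.86%) and none lower. Mt2, a metallothionein that binds zinc and cadmium, read -1.63, -1.94 and -1.73 in WT and -1.10, -0.95 and -1.02 in WT-IR. The lowest irradiated array was well above the highest untreated one, and the increase was 1.67-fold (standard error 0.12 on the log2 scale, adjusted p = 0.00838). Its neighbour in the family, Mt1, was at 0.16 (adjusted p = 0.0888), and was called under quantile normalization. Slc7a11, the cystine transporter that feeds glutathione synthesis, read 0.16, 0.18 and 0.16 in WT and 0.60, 0.78 and 0.80 in WT-IR, a 1.47-fold increase (adjusted p = 0.00193) that was of like size in KO cells (0.54, interaction adjusted p = 0.965). Hmox1, heme oxygenase, rose from -0.09, -0.25 and -0.12 to 0.18, 0.18 and 0.09 (adjusted p = 0.0283), a call lost without WT replicate 2 or 3 or WT-IR replicate 1 or 2 (up to 0.133). In the list of amino acid response genes and Atf4 targets, which also holds Slc7a11, Slc7a1, the arginine and lysine transporter, rose by 0.29 (adjusted p = 0.00843) and Cebpb, a leucine zipper factor, fell by 0.19 (adjusted p = 0.0408, and 0.181 without WT-IR replicate 2), and these 3 were the called members of 39 (5.13% higher and 2.56% lower, against 0.86% and 1.71% of all probe sets).

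The windows of the first 2 of these genes are shown for the motifs their known regulators bind. Mt2 (chr8:94172368-94172647, plus strand) holds the core of the metal response element, TGCACNC or TGCGCNC, where the zinc sensor Mtf1 can bind, and 31.9% of all windows hold it. Slc7a11 (chr3:50443584-50443733, minus strand) holds the core of the C/EBP-ATF response element, TGATGNAA, where Atf4 can bind, and 2.97% of all windows do. Both strands were searched and capitals mark the matches.
Mt2: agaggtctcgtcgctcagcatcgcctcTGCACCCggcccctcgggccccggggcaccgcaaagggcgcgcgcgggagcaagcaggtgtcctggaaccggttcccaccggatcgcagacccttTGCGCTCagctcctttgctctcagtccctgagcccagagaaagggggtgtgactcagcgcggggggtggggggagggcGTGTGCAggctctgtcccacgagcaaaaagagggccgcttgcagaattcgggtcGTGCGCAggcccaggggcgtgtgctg
Slc7a11: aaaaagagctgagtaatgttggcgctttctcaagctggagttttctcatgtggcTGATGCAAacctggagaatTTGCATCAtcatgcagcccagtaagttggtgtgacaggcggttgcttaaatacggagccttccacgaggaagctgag
There are 4 matches in the Mt2 stretch and 2 in that of Slc7a11.

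Single genes of inflammation were called in lists with no other call. Ptgs2, the inducible cyclooxygenase of prostaglandin synthesis, read -1.08, -1.24 and -1.20 in WT and -0.66, -0.61 and -0.76 in WT-IR (1.41-fold higher, adjusted p = 0.00356). It was the only called member of 37 NF-kB and inflammatory probe sets (2.7%, against 0.86% of all probe sets called higher). Their median was -0.03. Cxcl10, an interferon-inducible chemokine, read -1.61, -1.64 and -1.75 in WT and -1.07, -1.28 and -1.27 in WT-IR (1.38-fold higher, adjusted p = 0.0139). Cxcl10 was the only called member of 37 interferon and antigen presentation probe sets (2.7%, against 0.86% of all probe sets called higher). The call was lost without WT replicate 3 or WT-IR replicate 1 (up to 0.0705). Cxcl10 rose more in KO cells, by 1.29, with an interaction of 0.83 (adjusted p = 0.00333).

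Other increases, except Pdgfra, were named by the rank of their size and belong to no common list. Pdgfra and Pdgfrb are the called members of the fibroblast marker list. Jarid2, a subunit of the Polycomb repressive complex that methylates histone H3, read 0.29, 0.26 and 0.25 in WT and 0.81, 0.86 and 0.84 in WT-IR. The arrays of each group were within a few hundredths of each other, and the increase was 1.48-fold (adjusted p = 0.000176). Dact1, a Dishevelled-binding protein of Wnt signalling, read 0.55, 0.57 and 0.55 in WT and 0.99, 0.99 and 0.94 in WT-IR (1.33-fold higher, adjusted p = 0.00187). Pdgfra, the alpha receptor for platelet-derived growth factor, rose from 1.11, 1.12 and 1.14 to 1.41, 1.52 and 1.44 (1.26-fold, adjusted p = 0.00838), while Pdgfrb, the beta receptor, fell by 0.26 (adjusted p = 0.0106), a call lost without WT replicate 3 or WT-IR replicate 1 or 2 (up to 0.0574). In KO cells Jarid2 was at -0.05, Dact1 at -0.14 and Pdgfra at -0.07, and the interactions were called, at -0.62 (adjusted p = 0.000875), -0.56 (adjusted p = 0.00153) and -0.40 (adjusted p = 0.0196). Grem1, a secreted BMP antagonist, rose from 0.51, 0.65 and 0.59 to 1.04, 1.22 and 0.82 (adjusted p = 0.018), a call lost without WT replicate 1 or 3 or WT-IR replicate 1 or 2 (up to 0.0727). Sp4, a zinc finger factor, rose by 0.48 (adjusted p = 0.00838) and Klhl24, a kelch protein that serves as a ubiquitin ligase adaptor, by 0.45 (adjusted p = 0.00661). Mpp5, a scaffold of cell polarity, read -0.21, -0.20 and -0.18 in WT but 0.33, 0.56 and -0.01 in WT-IR, and its call (adjusted p = 0.0441) was lost without any array but WT-IR replicate 3 (up to 0.150).

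Among the other large decreases, Pnrc2, a cofactor of nuclear receptors and of mRNA decay, read -0.32, -0.40 and -0.41 in WT and -0.90, -1.03 and -1.01 in WT-IR (1.52-fold lower, adjusted p = 7.02e-05). Cdkn2b, the p15 inhibitor of Cdk4 and Cdk6, read 0.70, 0.66 and 0.60 in WT and 0.24, 0.20 and 0.23 in WT-IR (1.35-fold lower, adjusted p = 0.000329). Both had a called interaction, of 0.44 (adjusted p = 0.00337) and 0.28 (adjusted p = 0.0389), with changes of -0.16 and -0.15 in KO cells. Prss22, a serine protease, fell by 0.51 (adjusted p = 0.00174). Cflar, the inhibitor of caspase 8 at death receptors, fell by 0.53 (adjusted p = 0.0105, and 0.0518 without WT replicate 3), and Rap2b, a small GTPase of the Ras family, by 0.53 (adjusted p = 0.0106), lost without WT replicate 3 or WT-IR replicate 2 (up to 0.059). Prss22 and Rap2b rose in KO cells, by 0.25 and 0.39, with interactions of 0.76 (adjusted p = 0.000774) and 0.92 (adjusted p = 0.00294). Pdlim1, a PDZ and LIM protein of stress fibres, read -2.70, -2.41 and -2.60 in WT and -2.84, -2.99 and -3.30 in WT-IR (adjusted p = 0.0378), a call lost without WT replicate 2 or 3 or WT-IR replicate 2 or 3 (up to 0.123).

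**Figure D4:**
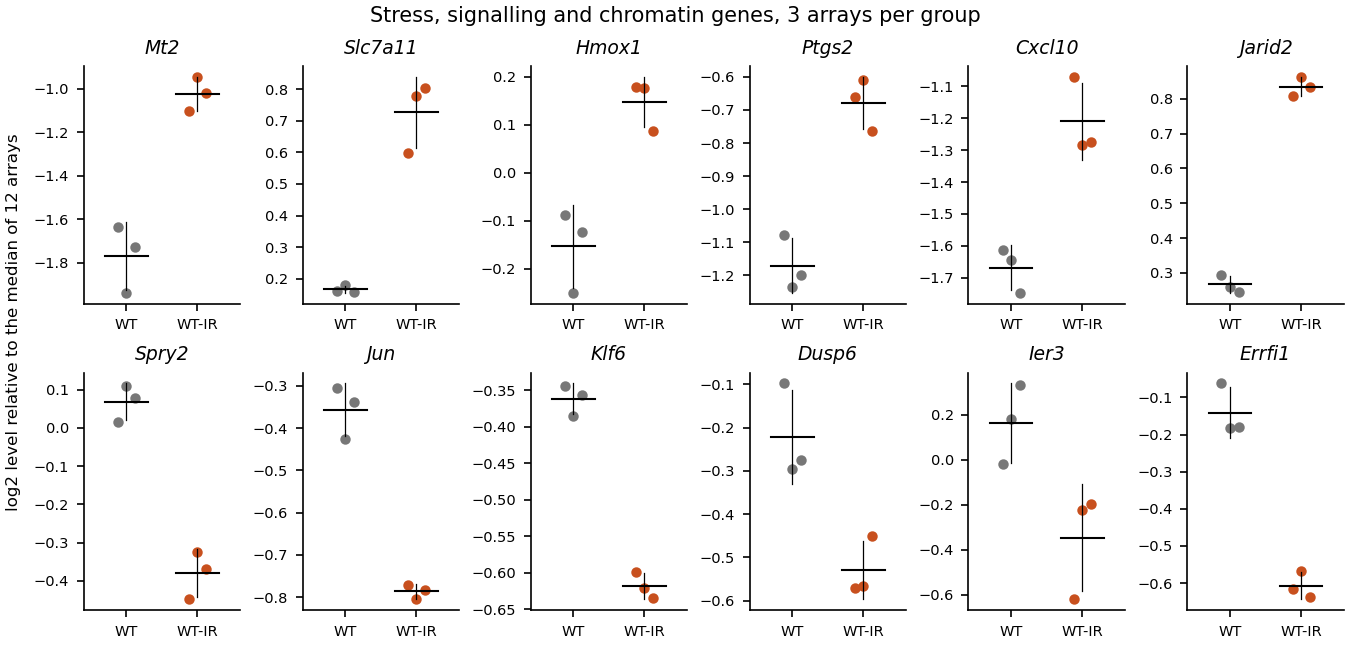
Log2 level of 12 further genes relative to the median of the 12 arrays, with 1 point per array, 3 arrays per group, the horizontal line at the group mean and the vertical line spanning 1 SD on either side. The y axis differs between panels. Mt2, Slc7a11, Hmox1, Ptgs2, Cxcl10 and Jarid2 lie higher in every WT-IR array than in any WT array (Jarid2 from 0.81 to 0.86 against 0.25 to 0.29), and the 6 early response and feedback genes lie lower.

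In several lists no member was called. This held for 19 probe sets of ribosomal proteins (median -0.001), 51 of oxidative phosphorylation (-0.042), 30 of heat shock and the unfolded protein response (-0.033), 22 of apoptosis (-0.015) and 12 of the circadian clock (-0.001), while at an unadjusted p under 0.05 from limma 2, 5, 8, 3 and 2 of them passed, against 18.5% of all probe sets with 1 symbol. The lists do not hold every gene of their theme, and Cflar, called lower as given above, was not in the apoptosis list. Another 4 lists had 2 to 4 calls each, at shares that lay above the 0.86% higher or 1.71% lower of all probe sets. Ribosome biogenesis had 2 calls of 56, both higher (3.57%), Wdr36 by 0.17 and Heatr1 by 0.26, with 35 values positive, and neither stayed called without each of the 6 arrays (up to 0.181, Heatr1 without WT-IR replicate 2). A further probe set of Wdr36 was at 0.15 (adjusted p = 0.219). Of 44 matrix, contraction and TGF-beta target probe sets, 1 was called higher (2.27%) and 3 lower (6.82%). The collagen Col5a2 was higher by 0.21, and Loxl1, a cross-linking enzyme of elastin, was lower by 0.26, Thbs1, thrombospondin, by 0.18 and Tgfb3, a TGF-beta ligand, by 0.18. Of these only Loxl1 stayed called without each of the 6 arrays, and without WT-IR replicate 2 Col5a2 had an adjusted p of 0.134. Sterol and fatty acid synthesis (6.9% of 29) and hypoxia and glycolysis (5.88% of 34) had 2 decreases each, Dhcr7 and Mmab, and Gys1 and Aldoa, from -0.31 to -0.18, and none of the 4 stayed called without each of the 6 arrays.

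**Figure D5:**
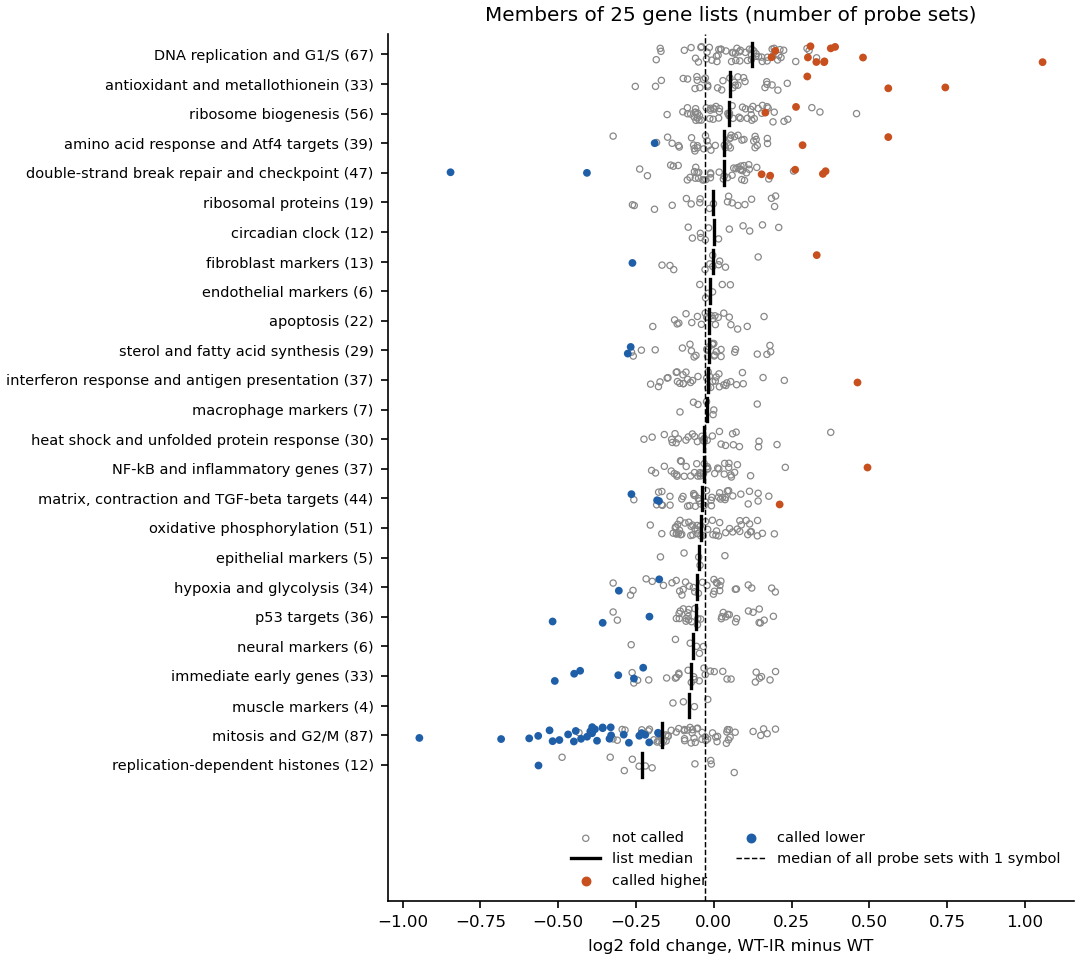
Each point is a member of 1 of 25 gene lists, with its log2 fold change from WT to WT-IR on the x axis, and lists ordered by their median (black bar). Filled points passed the adjusted p of 0.05, orange for higher and blue for lower, and the dashed line is the median of all probe sets with 1 symbol (-0.03). The G1/S list is at the top (0.12), the mitotic list (-0.17) and the histones (-0.23) at the bottom, and the other lists lie between -0.08 and 0.05.

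The called genes also differed in length, a property that entered neither the choice nor the test. The median genomic span was 41.3 kb for the 129 genes called higher, 17.6 kb for 255 of the 256 called lower with a span in GRCm38.p6, and 20.1 kb over 14941 probe sets. These are descriptions, and whether span has a part in the changes was not tested.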

How the data were processed

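RNA of 12 cultures (WT, WT-IR, KO and KO-IR, 3 each) was reduced in ribosomal RNA and hybridized by the authors to Affymetrix Mouse Exon 1.0 ST arrays, 1 culture per array. The deposited values are log2 values that the authors normalized in Gene Spring GX and centred per probe set on the median of the 12 arrays (largest distance of that median from 0, 5e-07). The values were fitted as deposited, and without absolute signal no filter on dim probe sets could be applied. The sources used here do not give the normalization method or the genome build of the probe annotation.

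A model of 4 group means was fitted to the 16755 probe sets with limma 3.58.1 in R 4.3.3, using lmFit and the default eBayes (degrees of freedom: 8 residual, 3.48 prior). Two-sided p-values were corrected by Benjamini-Hochberg across the 16755 probe sets. Calls were made at an adjusted p under 0.05 with no fold threshold, since small changes were the subject. The study's methods use an unpaired test with the same correction and a 2-fold threshold. Gene names came with the platform annotation: 14996 probe sets had 1 symbol (14860 distinct), 1019 several and 740 none, and 14941 matched a RefSeq gene of GRCm38.p6 by Entrez ID. Different probe sets of a gene were kept apart.

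The members, the 25 gene lists, the motifs and the tests were chosen with earlier results of these data known. Genes were named by a rule: the 20 increases and 20 decreases with the largest change whose arrays do not overlap, the called members of each list with its 4 smallest adjusted p-values, and a fixed panel of p53 targets and cell cycle genes, of which not all are printed. Genes outside it, such as Errfi1, Cdkn2b, Mki67 and Top2a, were named after their values were seen. Lists are described by counts and medians without a test. Counts of calls were recomputed on the compared groups alone, with a block for the replicate number and with the methods' t-test. They were also recomputed with quantile-normalized or median-centred arrays, robust eBayes, array weights, 1-symbol probe sets only and without each array in turn. The interaction was left out of the fit on the compared groups alone and of the t-test. Lists and named genes were recomputed for WT-IR vs WT only. Fold thresholds of 1.5 and 2 were applied to the total counts only, and the promoter counts were not recomputed. Promoter windows were searched in Python 3.11.15, and figures were drawn with matplotlib 3.10.9.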

Additional observations from a re-analysis of the deposited data

Results flagged for a closer look

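The genes given here are those picked for naming in this report whose change with irradiation differed between WT and KO cells. The interaction test of limma was used (adjusted p under 0.05), and each value is the log2 change in KO cells less that in WT cells. Among 14996 probe sets with 1 symbol, 217 passed (1.45%). The genes below are thus a part of the 217 and not a ranking of them. Others that passed and were called in WT cells include Dennd2c (0.92), Slc19a2 (0.91), Kifc5b (0.66), Kank3 (0.60), Pdgfa (0.58), Ahr (-0.52) and Plekhh3 (-0.41). The p53 targets Btg2 (2.45), Ddit4 (1.96), Trp53inp1 (1.80), Pmaip1 (1.73), Cdkn1a (1.64), Sesn2 (1.51), Mdm2 (1.35), Gtse1 (1.30) and Phlda3 (1.07) rose in KO cells. Of these, Gtse1 (-0.52) and Phlda3 (-0.21) fell in WT cells, and Ddit4 was at -0.32 there (adjusted p = 0.0559).

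Values above 0 were also found for Rap2b (0.92), Cxcl10 (0.83), Jun (0.78), Prss22 (0.76), Ckap2 (0.64), Fam83d (0.51), Ccnf (0.50), Pnrc2 (0.44), Errfi1 (0.38), Arhgap19 (0.32), Klf6 (0.30) and Cdkn2b (0.28). Of these, Cxcl10 rose in both genotypes and more in KO cells. Fam83d and Arhgap19 fell in both and more in WT cells, and Jun, Rap2b, Prss22 and Ckap2 fell in WT cells and rose in KO cells. Values below 0 were found for Mrfap1 (-0.67), Jarid2 (-0.62), Dact1 (-0.56), Pdgfra (-0.40), Col5a2 (-0.35) and Polq (-0.33), which rose in WT cells with KO changes between -0.24 and 0.02 that were not called. The WT call of Mrfap1 (limma adjusted p = 0.0366) was lost without each of the 6 WT and WT-IR arrays in turn (up to 0.148), and that of Col5a2 without 5 of them.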

How the results depend on the processing

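Counts of calls are of probe sets with 1 symbol at an adjusted p under 0.05, and the main counts were 385 for WT-IR vs WT, 976 for KO-IR vs KO and 217 for the interaction. A fold threshold of 1.5 left 10, 84 and 79 calls, and one of 2 left 1, 22 and 23. Array weights gave 1502, 2365 and 593. The methods' t-test gave 1 and 93 after Benjamini-Hochberg for the first 2 comparisons. For WT-IR vs WT it found none that was also past 2-fold, and 2861 (1030 higher, 1831 lower) at an unadjusted p under 0.05, where limma found 2773 (928 higher, 1845 lower). With only the groups compared, KO-IR vs KO gave 419. Leaving out 1 of the 12 arrays gave 119 (without WT-IR replicate 2) to 610 (without KO-IR replicate 1) calls for WT-IR vs WT, 542 to 1409 for KO-IR vs KO and 123 to 247 for the interaction. The cause of these differences was not tested. With the replicate number as a block the counts were 268, 856 and 181, and 255 of the 385 WT calls were shared. The labels do not say whether arrays of the same number were handled together. Deviations of same-numbered arrays from their group means correlated at 0.136, 0.004 and 0.120 between WT and WT-IR and at 0.068, -0.038 and 0.006 between KO and KO-IR. Each WT-IR array except replicate 2 correlated best with the WT array of its own number. Quantile normalization gave 563 calls in WT-IR vs WT, with 360 of the 385 shared, robust eBayes 379, median centring 354, only the groups compared 494, with 305 of the 385 shared, and 1-symbol probe sets alone 421. No probe set called in WT-IR vs WT changed sign under any alternative, and the signs of the other calls were not checked in this way. Absolute signal is absent from the values, so what dim probe sets limit could not be judged.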
